A study of Mus musculus with 6 samples.

Results

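Activity-regulated immediate-early genes are genes whose transcription follows within minutes of synaptic input or another stimulus, without new protein synthesis. They were followed here in neocortex of null mutant mouse embryos that the labels describe as synaptically silent. The list held 42 genes, chosen by symbol, and 32 of them had a probe with 1 gene symbol in the platform annotation, out of 6041 genes with such a probe in the whole table. Each of the 32 had 1 probe. The other 10, namely Fos, Fosl2, Jun, Nr4a1, Nr4a3, Nrn1, Dusp4, Dusp5, Dusp6 and Trib1, were not found by symbol and were not analysed here. Of the 32 genes, 9 belong to the Fos, Jun, Egr and Nr4a families of transcription factors, 5 are other regulators of transcription, and 18 are effectors, which act at synapses, outside the cell or in signalling.

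Neocortex RNA of 6 null mutant embryos, taken at embryonic day 14, was hybridised to 6 arrays of 2 colours, 1 embryo to an array. The other channel of every array held 1 pool made from 6 wild-type animals of the same day and region. All animals were on the C57BL/6 background, and the mutants are biological replicates by their labels. Replicates 1 to 3 had the mutant in cy3, and replicates 4 to 6 had it in cy5. A single pool served as control, which leaves the spread between wild-type animals unmeasured.

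In neurons, calcium that enters through receptors and channels activates kinases, which switch on the factors CREB and SRF already bound at immediate-early promoters. The first products are transcription factors such as Fos and Egr1, and a second group acts directly on synapses and signalling, such as Arc, Bdnf and Homer1. The same genes also answer growth factors and tissue stress, and several of them serve dividing progenitors, so they are not markers of synaptic input alone in an embryonic cortex.

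The promoters of 5 genes named in the results below are shown as examples. All 5 hold a CRE or its half-site, as did 20 of 30 listed genes searched. Per1, Homer1, Bdnf and Egr2 also had a half-site and are not shown. Whether the sites act in these genes was not tested. Of the 42 listed genes 30 had a promoter in the RefSeq table of build GRCm38.p6, whose windows run from 250 bases before the start of a gene to 50 after it. The sequences are the 250 bases before the start, 5′ to 3′ on the strand of the gene, and capitals mark each CRE, the site of CREB, or its half-site, read on either strand.
Fosb (chr7:19310046-19310295, minus strand): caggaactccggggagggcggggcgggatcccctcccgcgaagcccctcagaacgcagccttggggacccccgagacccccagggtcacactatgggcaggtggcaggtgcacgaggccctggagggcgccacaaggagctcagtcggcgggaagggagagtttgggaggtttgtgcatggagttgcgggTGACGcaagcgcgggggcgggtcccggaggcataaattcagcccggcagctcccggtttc
Junb (chr8:84978749-84978998, minus strand): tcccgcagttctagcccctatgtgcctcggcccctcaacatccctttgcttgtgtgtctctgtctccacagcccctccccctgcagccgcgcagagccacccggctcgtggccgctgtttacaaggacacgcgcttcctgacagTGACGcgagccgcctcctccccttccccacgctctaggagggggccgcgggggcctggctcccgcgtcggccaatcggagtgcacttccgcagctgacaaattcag
Nr4a2 (chr2:57124004-57124253, minus strand): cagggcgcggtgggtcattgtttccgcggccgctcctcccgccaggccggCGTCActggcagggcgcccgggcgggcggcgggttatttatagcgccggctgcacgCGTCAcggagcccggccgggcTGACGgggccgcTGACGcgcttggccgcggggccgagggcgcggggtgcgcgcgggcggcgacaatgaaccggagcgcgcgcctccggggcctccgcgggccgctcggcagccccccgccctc
Rgs2 (chr1:144004150-144004399, minus strand): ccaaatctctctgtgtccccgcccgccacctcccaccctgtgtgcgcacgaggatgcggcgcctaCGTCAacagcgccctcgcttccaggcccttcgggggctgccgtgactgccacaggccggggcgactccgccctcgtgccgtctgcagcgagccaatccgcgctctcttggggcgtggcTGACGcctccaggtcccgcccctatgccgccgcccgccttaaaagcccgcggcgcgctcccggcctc
Plk2 (chr13:110394794-110395043, plus strand): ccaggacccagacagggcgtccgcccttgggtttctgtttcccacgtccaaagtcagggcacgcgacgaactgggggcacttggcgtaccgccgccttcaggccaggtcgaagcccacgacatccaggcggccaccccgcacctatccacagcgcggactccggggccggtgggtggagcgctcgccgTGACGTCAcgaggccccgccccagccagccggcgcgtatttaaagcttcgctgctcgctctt

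The full CRE, TGACGTCA, was searched together with its half-site TGACG, the AP-1 site TGANTCA and the CArG box, the site of SRF, on both strands of the 300 bases, and each full CRE also counts as a half-site. A half-site stood in 24 of 45 promoters of the listed genes (53.3%) and in 20.8% of all 32851 promoters. The full CRE stood in 8.89% of the listed genes' promoters, those of Btg2, Dusp1, Maff and Plk2, and in 1.79% of all. The CArG box was found in 11.1% of the listed genes' promoters, those of Egr2 and Dusp5, against 1.63% of all, and the AP-1 site in 2.22%, a promoter of Bdnf, against 7.81%. In the sequences above, Plk2 has the full CRE, Nr4a2 4 half-sites, Rgs2 2 half-sites, and Fosb and Junb 1 half-site each. Several genes have more than 1 promoter in the table and can count more than once, as Egr2 does for the CArG box. By gene, a half-site stood in 20 of 30, the full CRE in 4, the CArG box in 2 and the AP-1 site in 1. The share by gene over all promoters was not counted, and a match of letters is a description of the window only.

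The deposited value is a log ratio of the 2 channels of an array, read here as log2 with base 2 assumed. The labels do not settle its direction. All arrays were read as mutant over pool, where positive values mean more RNA in mutants. The main counts, medians and estimates are also given with replicates 1, 2 and 3 turned, the reading in which the deposited ratio follows the dyes. Values of single arrays, and signs shared between arrays, are as deposited unless the turn is named. Xist, which coats the silent X chromosome of females, lay at -3.17 and -2.58 on replicates 5 and 6, a deficit that a male mutant can show against a pool with females; its values of 0.24 to 0.71 on the other arrays settled nothing. Replicates 3 and 4 stood apart from the others although their mutants carried different dyes. Over all probes the standard deviation was 1.09 and 0.62 there, against 0.35 to 0.52 on the other arrays. Their correlation with each other was 0.59 as deposited, and it changes sign when replicate 3 is turned and replicate 4 is not. Replicates 3 and 4 are therefore given with each result, and the main results are also given without them. Ratios carry no level, so the labelled tissue could not be checked against its markers, and a smaller share of a cell type and less RNA per cell cannot be told apart.

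No immediate-early gene differed between mutants and pool past the threshold. Enough values for a fit, at least 2 in each dye orientation, were held by 26 of the 32 genes, and 0 of these had an adjusted p under 0.05 in limma, as did 0% of all 4958 fitted probes. Without adjustment, 0 of 26 genes and 1.77% of all probes had a p under 0.05. The smallest unadjusted p among the 26 was 0.121, of Rgs2. Standard errors ran from 0.11 for Pim1 to 0.67 for Per1 with a median of 0.16, and the 95% interval of each of the 26 estimates held 0. With replicates 1 to 3 turned, again 0 genes passed, 0 of 26 genes and 4.6% of all probes had an unadjusted p under 0.05, the smallest unadjusted p was 0.113, of Egr2, and 26 of 26 intervals held 0.

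**Figure D1:**
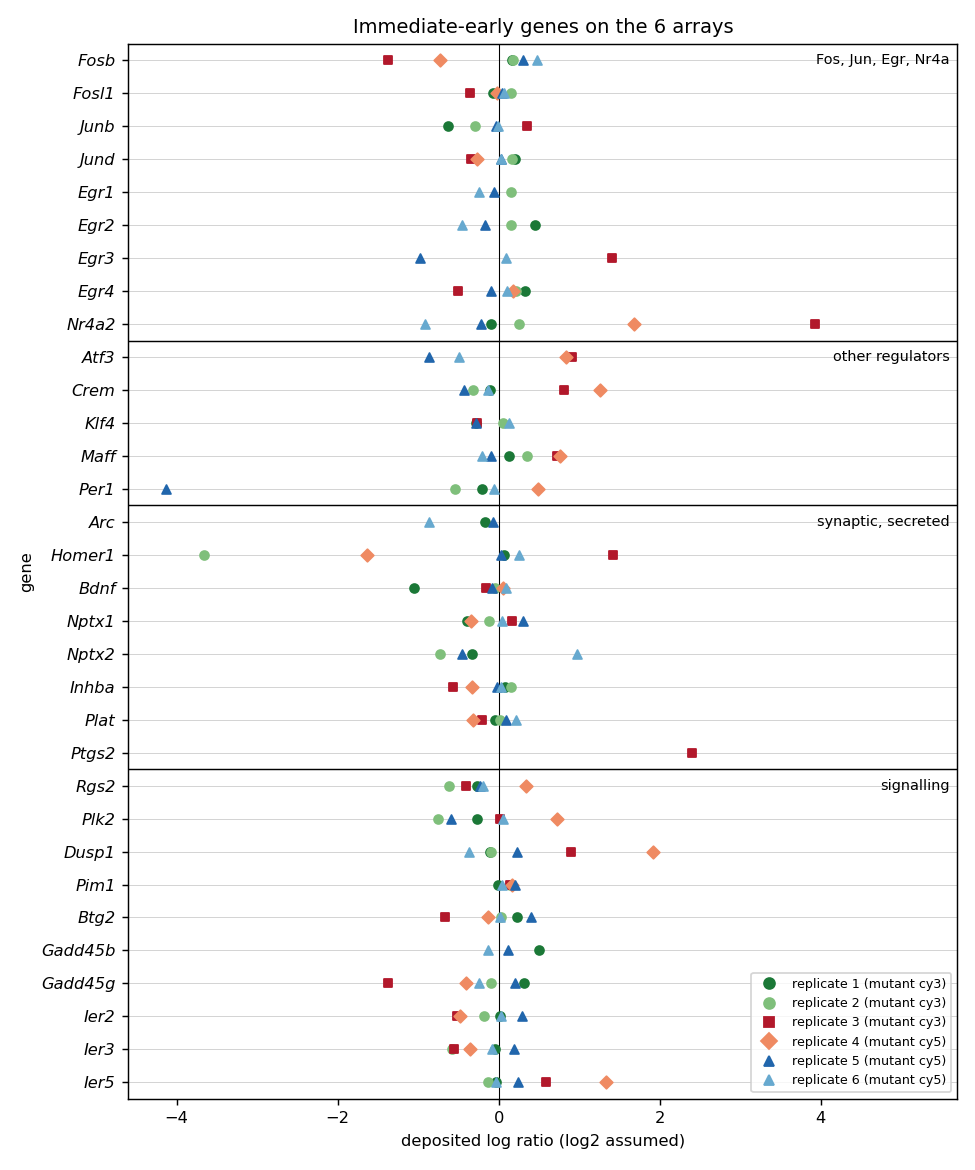
Deposited log ratio (x axis, log2 assumed) of the 32 immediate-early genes with a probe (rows, grouped by role), 1 point for each array with a value, coloured by replicate. Most points lie near 0; the widest rows are Nr4a2, from -0.91 to 3.92, Homer1, from -3.66 to 1.42, and Per1, from -4.13 to 0.49.

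Among the Fos and Jun genes, whose proteins pair into the AP-1 factor, the arrays split by replicates 3 and 4. Fosb lay at 0.17, 0.18 and -1.37 on replicates 1 to 3 and at -0.73, 0.30 and 0.47 on replicates 4 to 6. It was positive on replicates 1, 2, 5 and 6 and negative on 3 and 4, so that its estimate was -0.16 ± 0.26 (SE, n = 6) over all arrays and 0.28 ± 0.07 (SE, n = 4) without those 2. Jund, the family member that is present in resting cells, had the same pattern at smaller size, with 0.21, 0.16, -0.34, -0.27, 0.04 and 0.03 on replicates 1 to 6. Junb, which opposes Jun on many targets, went the other way. It lay at -0.63, -0.29 and 0.35 on replicates 1 to 3, had no value on replicate 4, and lay at -0.03 and -0.00098 on replicates 5 and 6. Its estimate was -0.10 ± 0.18 (SE, n = 5), or -0.24 ± 0.08 (SE, n = 4) without replicates 3 and 4. Fosl1, a Fos relative, stayed near 0, at -0.07, 0.16, -0.35, -0.02, 0.05 and 0.07 on replicates 1 to 6, with an estimate of -0.03 ± 0.12 (SE, n = 6).

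The Egr genes, zinc finger factors that follow strong synaptic input, were thinly measured. Egr4 was the 1 of them with values on all arrays, at 0.33, 0.21, -0.51, 0.18, -0.10 and 0.11 on replicates 1 to 6, and its estimate was 0.04 ± 0.14 (SE, n = 6). Egr2, known also for hindbrain patterning and myelination, lay at 0.45 and 0.16 on replicates 1 and 2 and at -0.16 and -0.45 on replicates 5 and 6, with no value on 3 and 4. Its values thus had opposite signs in the dye orientations. They cancelled to -0.0018 as deposited but added to -0.31 ± 0.16 (SE, n = 4; limma adjusted p = 0.972) with replicates 1 to 3 turned. In that reading 16.9% of all probes were likewise negative on each of replicates 1, 2, 5 and 6. Egr1, the most used of these as a marker of active neurons, had 3 values, 0.16 on replicate 2, -0.06 on 5 and -0.24 on 6. Egr3 had 1.41 on replicate 3, -0.98 on 5 and 0.09 on 6, and neither gene could be fitted.

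Nr4a2, an orphan nuclear receptor that neurons also carry as a stable marker of certain subplate and dopamine cells, had the widest spread of the transcription factor families. It lay at -0.10, 0.25 and 3.92 on replicates 1 to 3 and at 1.68, -0.22 and -0.91 on replicates 4 to 6. Replicate 3 ranked 33 from the top of 4466 probes and replicate 4 ranked 72 of 4396, while the other 4 values lay on both sides of 0. The estimate of 0.77 ± 0.57 (SE, n = 6; limma adjusted p = 0.921) was the highest of the 26 genes and rests on these 2 arrays. Without them it was -0.25 ± 0.14 (SE, n = 4; limma adjusted p = 0.484), and with replicates 1 to 3 turned it was -0.59 ± 0.57 (SE, n = 6).

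The other regulators were the role with the highest medians on replicates 3 and 4, at 0.77 and 0.80 over 4 genes each, against -0.42 to -0.13 on the remaining arrays. Crem, a relative of CREB whose short forms shut off CRE promoters, lay at -0.11, -0.31, 0.81, 1.25, -0.42 and -0.13 on replicates 1 to 6. It was negative on all arrays but 3 and 4, and its estimate was 0.18 ± 0.25 (SE, n = 6) with them and -0.24 ± 0.09 (SE, n = 4) without. Maff, a small Maf protein, was positive on 4 arrays, at 0.13, 0.35, 0.73 and 0.76 on replicates 1 to 4, and lay at -0.10 and -0.21 on replicates 5 and 6. Atf3, a stress-induced factor, had 0.91 and 0.84 on replicates 3 and 4, -0.87 and -0.49 on 5 and 6, and no value on 1 and 2. Atf3 had too few values for a fit. Klf4, a factor of pluripotent and epithelial cells, lay at -0.29, 0.05, -0.27, -0.28 and 0.13 on replicates 1, 2, 3, 5 and 6. The probe of Crem cannot tell its short forms from the full-length ones.

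Per1, a clock gene that CREB also induces, held the lowest single value of the list. It lay at -0.21 and -0.54 on replicates 1 and 2, at 0.49 on replicate 4, at -4.13 on replicate 5 and at -0.05 on replicate 6, with none on replicate 3. The value on replicate 5 was the lowest of all 5678 probes on that array. The estimate was -0.80 ± 0.67 (SE, n = 5), with a 95% interval of -2.44 to 0.83, the widest of the 26 genes. It rests on replicate 5, without which it was -0.08 ± 0.19 (SE).

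Effectors that act at synapses or outside the cell had 6 fitted genes. As deposited all 6 estimates were negative, where 56.7% of all probes were. With replicates 1 to 3 turned all 6 were positive, where 53% of all probes were, with Inhba at 0.00039. Without replicates 3 and 4, 2 of 6 lay above 0, where 62.6% of all probes did. Homer1, a postsynaptic scaffold whose short form is the activity-induced one, was the least even of the 6. It lay at 0.07, -3.66 and 1.42 on replicates 1 to 3 and at -1.63, 0.03 and 0.25 on 4 to 6. The value on replicate 2 was the 3rd lowest of 5183 probes on that array. Its estimate was -0.59 ± 0.62 (SE, n = 6) and turned to 0.15 ± 0.33 (SE, n = 5) without replicate 2. The probe does not tell the forms apart. Bdnf, the neurotrophin that strengthens active synapses, lay at -1.05, -0.04, -0.15, 0.06, -0.08 and 0.09 on replicates 1 to 6. It was far below 0 on replicate 1 and near 0 on the other 5 arrays. The estimate of -0.20 ± 0.16 (SE, n = 6; 95% interval -0.57 to 0.18) rests on that first array, without which it was -0.04.

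Nptx1 and Nptx2, pentraxins that cluster receptors at excitatory synapses, both had a higher mean with the mutant in cy5 than in cy3, with values that overlap. Nptx2 had -0.34 and -0.73 on replicates 1 and 2, -0.45 on 5 and 0.98 on 6. Nptx1 had -0.39, -0.12, 0.17, -0.35, 0.31 and 0.04 on replicates 1 to 6. Inhba, a subunit of the growth factor activin, and Plat, a secreted protease, were lowest on replicates 3 and 4. Inhba had 0.08, 0.15, -0.56, -0.33, -0.02 and 0.02 on replicates 1 to 6. Plat had -0.04, 0.01, -0.21, -0.31, 0.10 and 0.21 on replicates 1 to 6. Arc, the capsid-like protein that removes glutamate receptors from synapses, was negative on each of its 3 arrays, with -0.17 on replicate 1, -0.07 on 5 and -0.87 on 6. Ptgs2, the inducible cyclooxygenase, had 1 value, 2.40 on replicate 3, where ratios spread most over all probes. Arc and Ptgs2 could not be fitted.

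Among the signalling effectors, Rgs2 had the smallest unadjusted p. It shortens signalling of G protein coupled receptors, and lay at -0.26, -0.61 and -0.40 on replicates 1 to 3 and at 0.34, -0.23 and -0.20 on replicates 4 to 6. Replicate 4 was the 1 array above 0. The estimate was -0.23 ± 0.13 (SE, n = 6; limma adjusted p = 0.921), with a 95% interval of -0.53 to 0.08. Without replicates 3 and 4 it was -0.33 ± 0.09 (SE, n = 4; limma adjusted p = 0.300), and with replicates 1 to 3 turned it was 0.20 ± 0.13 (SE, n = 6). Plk2, a kinase that weakens overactive synapses and whose promoter above holds the full CRE, lay at -0.26, -0.75, 0.02, 0.72, -0.59 and 0.05 on replicates 1 to 6. Its estimate was -0.13 ± 0.19 (SE, n = 6) and, without replicates 3 and 4, -0.39 ± 0.15 (SE, n = 4; limma adjusted p = 0.366). The sign of Plk2 turned without replicate 5, to 0.03, and with replicates 1 to 3 turned, to 0.20.

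Dusp1, a phosphatase that ends MAP kinase signalling, and Ier5, a regulator of the heat shock response, were high on replicates 3 and 4 alone. Dusp1 had -0.10, -0.09, 0.90, 1.92, 0.23 and -0.36 on replicates 1 to 6. Ier5 had -0.04, -0.13, 0.59, 1.33, 0.25 and -0.03 on replicates 1 to 6. The estimate of Dusp1 was 0.41 ± 0.30 and that of Ier5 0.33 ± 0.20 (SE, n = 6 each), or -0.08 for Dusp1 and 0.01 for Ier5 without those 2 arrays. Low on the same arrays were 4 others. Gadd45g, a growth arrest protein of newborn neurons, had 0.32, -0.09, -1.37, -0.40, 0.21 and -0.24 on replicates 1 to 6. Btg2, which marks progenitors about to make neurons, had 0.23, 0.02, -0.66, -0.13, 0.40 and 0.02 on replicates 1 to 6. Both were lowest on replicate 3. Ier2, a nuclear protein of the early response, had 0.01, -0.18, -0.52, -0.48, 0.30 and 0.03 on replicates 1 to 6. Ier3, a survival factor, had -0.04, -0.58, -0.55, -0.36, 0.19 and -0.08 on replicates 1 to 6, and was as low on replicate 2 as on replicate 3. Pim1, a survival kinase, was the steadiest member, positive on 5 of 6 arrays. It had -0.01, 0.14, 0.14, 0.17, 0.21 and 0.04 on replicates 1 to 6, with an estimate of 0.11 ± 0.11 (SE, n = 6; 95% interval -0.13 to 0.36). Gadd45b had 0.50 on replicate 1, 0.12 on 5 and -0.13 on 6 and could not be fitted.

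Transcription factors and effectors were next compared on each array, as the median of the Fos, Jun, Egr and Nr4a genes with a value minus the median of the effectors with a value. The difference was 0.21, 0.28 and -0.19 on replicates 1 to 3 and 0.21, -0.18 and 0.0043 on replicates 4 to 6, with 5 to 9 factors and 14 to 17 effectors on an array. It was positive on 4 of 6 arrays, and its mean of 0.05 ± 0.21 (SD, n = 6) was smaller than its spread between arrays. On replicates 1 and 2 the factors had medians of 0.17 and 0.16 and the effectors medians of -0.04 and -0.12. On replicate 5 the order was turned, at -0.06 for the factors and 0.12 for the effectors. Over the 5 factors and 14 effectors with values on all arrays the differences were 0.20, 0.29, -0.17, 0.21, -0.16 and 0.04.

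**Figure D2:**
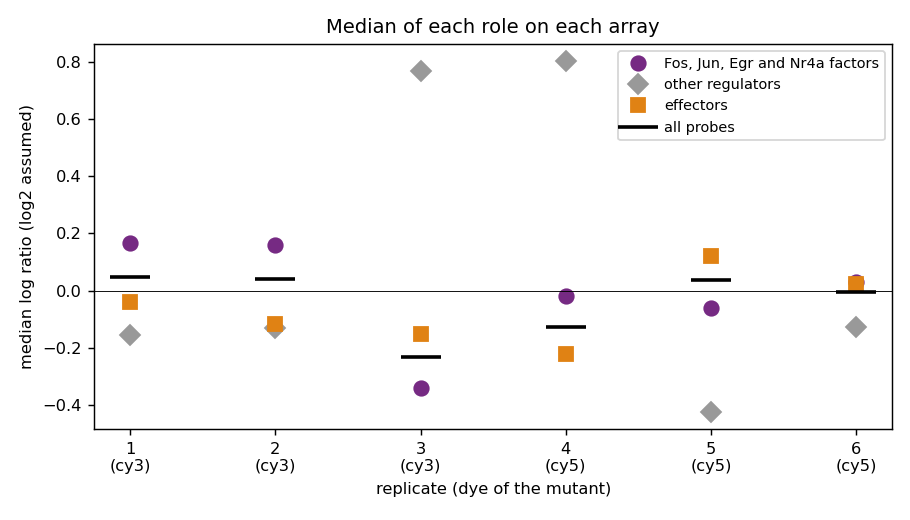
Median log ratio (y axis, log2 assumed) of each role on each array (x axis, with the dye of the mutant), beside the median of all probes as a bar. Factors lie above effectors on replicates 1, 2 and 4 and below them on 3 and 5, and the other regulators stand at 0.77 and 0.80 on replicates 3 and 4.

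The effectors differed between dye orientations in 1 direction. The mean with the mutant in cy5 was above the mean with the mutant in cy3 for 15 of 15 fitted effectors, with a median difference of 0.27, while 53% of all fitted probes lay that way. For the factors it was 4 of 7, with a median of 0.05, and for the other regulators 2 of 4. Inhba was the closest call, at a difference of 0.00078, and fell on the other side when arrays were centred on their medians, which left 14 of 15. Without replicates 3 and 4 the count was 13 of 15, where 47.8% of all probes lay that way. The sets share their arrays, so these counts are a description. An estimate with replicates 1 to 3 turned has the sign of this difference, so that all 15 effectors were positive in that reading, with a median of 0.14, and 3 of 15 were positive as deposited, with a median of -0.13. Whether the dyes or the genotype gave the difference cannot be told apart as long as the labels do not settle the direction of the ratio.

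**Figure D3:**
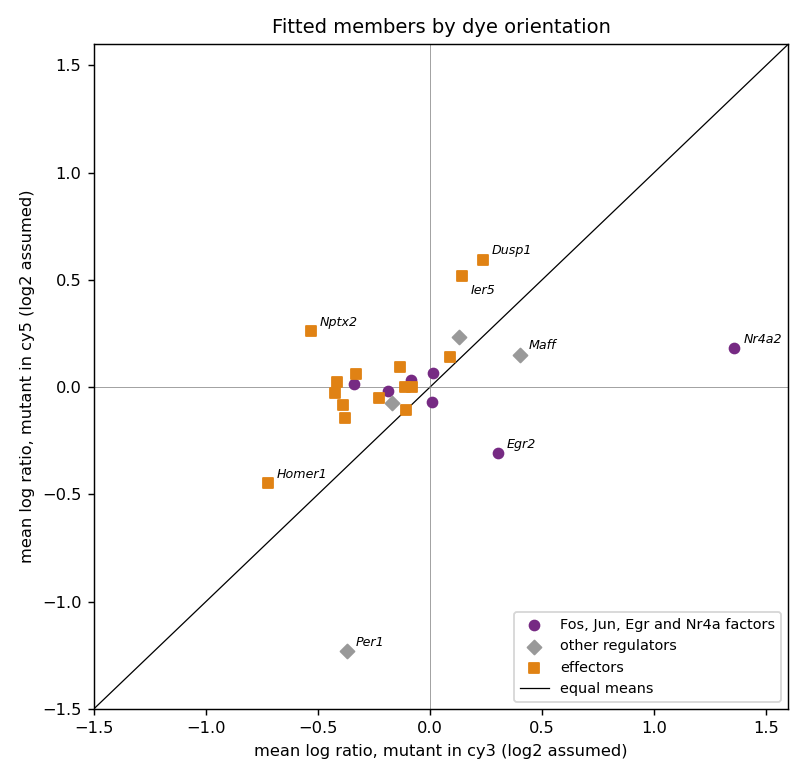
Mean log ratio of the 26 fitted genes on the arrays with the mutant in cy5 (y axis) against the arrays with the mutant in cy3 (x axis), log2 assumed, 1 point for each gene, coloured by role. All 15 effectors lie above or on the line of equal means, with Inhba 0.00078 above it, while Nr4a2, Egr2, Jund, Maff and Per1 lie below.

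Over all 26 fitted genes, 19 estimates lay below 0 (73.1%), where 56.7% of all fitted probes did, and their median was -0.08 against -0.03 for all probes. With replicates 1 to 3 turned, 21 lay above 0 (80.8%), where 53% of all probes did, with medians of 0.07 and 0.02. The sign of 18 of the 26 changed between the 2 readings. Leaving out 1 array changed the sign of 12 of the 26 as deposited, namely Fosb, Fosl1, Junb, Jund, Egr4, Crem, Homer1, Nptx1, Inhba, Plat, Plk2 and Btg2. Only 23 genes could be refitted without replicate 1 or 2, and 22 without replicate 5 or 6. The share of all probes that change sign was not counted at any setting, so sign changes cannot be called particular to these genes. Without replicates 3 and 4, 14 of 26 were below 0, where 37.4% of all probes were, and 11 of 26 changed sign against the estimates with all arrays. At that setting 4 of 26 genes, Fosb, Junb, Crem and Rgs2, had an unadjusted p under 0.05 (15.4%), and 13.6% of all 4728 probes did, so the share was near the background. Of these, Fosb had the smallest unadjusted p, 0.0115, with limma adjusted p = 0.300. After adjustment 0 of 26 passed, and 0.0212% of all probes did. With replicates 1 to 3 turned as well, the estimates were 0.11 for Fosb, 0.22 for Junb, -0.03 for Crem and 0.11 for Rgs2. Junb and Rgs2 thus changed sign, and none of the 4 had an unadjusted p under 0.05 in limma. In that reading 1 of 26 genes did, Egr2, at -0.31 ± 0.09 (SE, n = 4; limma unadjusted p = 0.0243, adjusted p = 0.169). The share of all probes under 0.05 at that setting is not given here, so the count has no background beside it. With array weights in limma, 2 of 26 genes, Rgs2 and Plk2, had an unadjusted p under 0.05, against 12.1% of all probes, and 0 of 26 passed after adjustment, against 0.0403%.

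**Figure D4:**
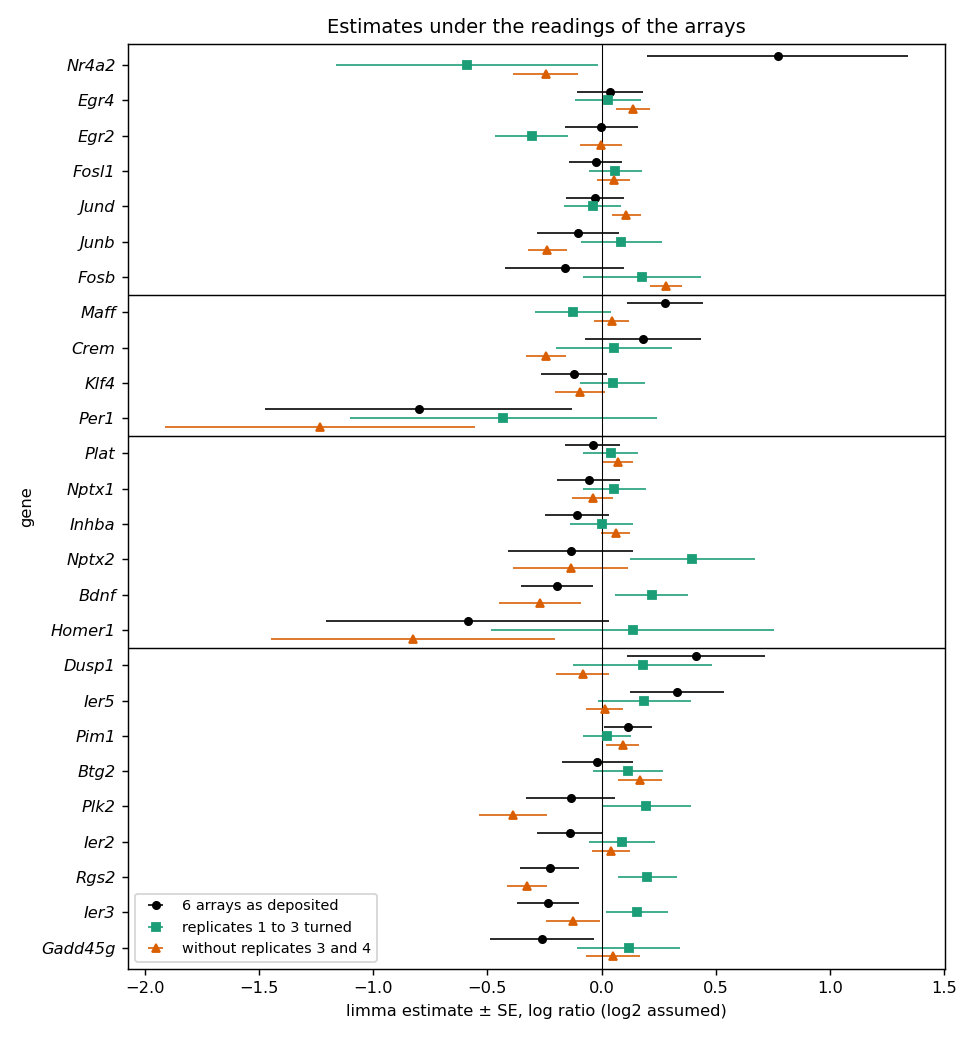
Limma estimate of the 26 fitted genes (rows, grouped by role) with its standard error as a bar (x axis, log2 assumed), over 6 arrays as deposited, with replicates 1 to 3 turned, and without replicates 3 and 4. Estimates of one gene often lie on both sides of 0: Nr4a2 stands at 0.77, -0.59 and -0.25 under the 3 settings and Rgs2 at -0.23, 0.20 and -0.33.

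On replicates 1, 2, 5 and 6 as deposited, 7 of 26 genes kept 1 sign (26.9%), against 17.2% of all probes. Fosb, Jund and Btg2 were positive there, as were 11.7% of all probes, and Junb, Crem, Per1 and Rgs2 were negative, as were 5.46%. With replicates 1 and 2 turned, 3 of 26 did (11.5%), against 29.5% of all probes: Nptx1 was positive, as were 12.6% of all probes, and Egr2 and Maff were negative, as were 16.9%. Replicates 1 and 2 gave the same sign to 18 of 26 genes, against 71.1% of all probes, and replicates 5 and 6 to 19 of 31, against 64.2%. No gene of the 21 with values on all 6 arrays kept 1 sign on each, against 1.44% of all such probes.

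Replicates 3 and 4 carried most of the wide values. A size beyond 1 was reached by 6 of 26 genes on replicate 3 (23.1%) and 5 of 23 on replicate 4 (21.7%), against 28.8% and 7.53% of all probes there, and by 0 or 1 gene on each other array, where 2.73%, 1.58%, 2.45% and 4.21% of all probes on replicates 1, 2, 5 and 6 did so. As deposited, both arrays gave the same sign to 17 of 22 genes (77.3%), against 78.6% of all probes. Positive on both were Nr4a2, Atf3, Crem, Maff, Plk2, Dusp1, Pim1 and Ier5, where 26.5% of all probes were, and negative on both were Fosb, Fosl1, Jund, Inhba, Plat, Btg2, Gadd45g, Ier2 and Ier3, where 52.2% were. With replicates 1 to 3 turned, replicate 3 changes sign and replicate 4 does not. In that reading these genes and probes have opposite signs on replicates 3 and 4. Replicate 4 ran against the arrays of its own dye orientation: 4 of 23 genes had the same sign as on replicate 5 (17.4%), against 37% of all probes, and 6 of 23 the same sign as on replicate 6 (26.1%), against 50.1%. Across the 23 genes the correlation of replicates 4 and 6 was -0.70, beside -0.08 over all probes. It is named because it was the largest in size over all pairs of arrays. The rank correlation was -0.56, beside 0.0028 over all probes. These values are a description of genes that share 2 arrays.

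Marker lists moved on the same arrays, and their part in these results was not tested. The median of 11 of 16 neuron markers with a value was -0.99 on replicate 3 and -0.28 on replicate 4, against -0.13 to 0.15 on the other arrays. Heat shock and stress genes, 9 of 16 with a value, had -0.69 and -0.23 there, against 0.0029 to 0.11 elsewhere. Microglia and macrophage genes had 0.34 on replicate 3, over 4 of 13 genes, and 1.24 on replicate 4, over 3, against 0.0071 to 0.26 elsewhere. Progenitor markers had -0.35 on replicate 3, 0.11 on 4, 0.30 and 0.22 on 1 and 2, and 0.0020 and -0.11 on 5 and 6. Meninges and vessel genes had 0.31 and 0.27 on replicates 5 and 6, -0.07 on 4, and -0.43, -0.27 and -0.44 on 1 to 3. Whether the dyes or the genotype gave this difference was not tested. Erythroid genes stayed between -0.20 and 0.24. Median estimates as deposited and with replicates 1 to 3 turned were -0.05 and 0.23 for meninges and vessels and 0.09 and -0.16 for progenitors. They were -0.17 and 0.05 for neurons, -0.15 and 0.02 for heat shock and stress, and -0.16 and -0.08 for microglia and macrophages. Erythroid genes had -0.07 and 0.07, and all probes -0.03 and 0.02. Without replicates 3 and 4, as deposited, neurons had 0.03, heat shock and stress 0.06, erythroid genes 0.06 and progenitors 0.14. Meninges and vessels had -0.02, microglia and macrophages -0.04 and all probes 0.04. There 6 of 11 heat shock and stress genes had an unadjusted p under 0.05 in limma, against 13.6% of all probes. So did 3 of 13 progenitor, 1 of 9 meninges and vessel, 1 of 4 microglia and macrophage, and 0 neuron or erythroid genes. In each of the 6 marker lists 0 genes passed in limma.

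Genes upstream of the immediate-early programme, such as the kinases and the factors that carry calcium signals to the nucleus, gave no passing gene either. Of 55 listed, 27 had a probe and 20 could be fitted, 10 above and 10 below 0, where 56.7% of all probes were below, with a median of 0.0093. With replicates 1 to 3 turned, 13 of 20 were above 0, where 53% of all probes were, with a median of 0.05. Without replicates 3 and 4, 4 of 19 had an unadjusted p under 0.05 in limma, against 13.6% of all probes. The count with replicates 1 to 3 turned, where 4.6% of all probes had one, is not given here. With all arrays as deposited, 3 of 20 stood at an unadjusted p under 0.05, against 1.77% of all probes. Camk2d, a calcium and calmodulin dependent kinase, was one of them, with -1.62 and -2.27 on replicates 1 and 2 and between -0.23 and 0.38 on replicates 4 to 6. The calmodulin gene Calm3 was another, with -0.94 and -0.88 on replicates 1 and 2 and -0.51 to 0.28 on replicates 4 to 6. Both thus lay lower where the mutant carried cy3, and their signs turn with the reading: Camk2d had -0.98 as deposited and 0.96 turned, and Calm3 had -0.51 and 0.40. Prkacb, a catalytic subunit of protein kinase A, had 0.67 ± 0.26 (SE, n = 6), positive on 5 of 6 arrays, and -0.37 with replicates 1 to 3 turned. Creb1, the gene of the CRE binding factor, had 0.98 and 1.21 on replicates 3 and 4 and -0.14 to 0.39 elsewhere, and an estimate of 0.45 ± 0.22 (SE, n = 6), or 0.13 without those 2 arrays and 0.03 with replicates 1 to 3 turned.

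The remaining named genes of that list were Braf at 0.22 and Ppp3cb, a calcineurin subunit, at -0.20, or 0.03 without replicates 3 and 4. Among 35 other genes induced by activity 30 had a probe and 20 were fitted, 10 above and 10 below 0, with a median of -0.01, or 9 above 0 and a median of -0.0087 with replicates 1 to 3 turned. Of them 0 passed, and 0 had an unadjusted p under 0.05 in limma with all arrays as deposited, against 1.77% of all probes. Without replicates 3 and 4, 2 of 16 had one, against 13.6% of all probes. Per2, the partner of Per1 in the clock, stood at 0.27 ± 0.20 (SE, n = 5), Srxn1 at 0.31 and Nab2, a repressor that Egr factors induce and then bind, at 0.22. Below 0 stood somatostatin, Sst, at -0.17, Ccn1 at -0.14 and Nab1 at -0.10, with Ccn1 at 0.07 and Nab1 at 0.05 without replicates 3 and 4.

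Values were missing unevenly. On replicates 1 to 6, values were held by 87.5%, 84.4%, 81.2%, 71.9%, 96.9% and 96.9% of the 32 genes and by 76.0%, 75.6%, 65.1%, 64.1%, 82.8% and 82.8% of all probes. All 6 arrays were covered for 21 of 32 genes. The 6 genes that could not be fitted were Egr1, Egr3, Atf3, Arc, Ptgs2 and Gadd45b, and on replicate 4 only Atf3 among them had a value.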

How the data were processed

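Each array compared neocortex RNA of 1 of 6 null mutants with the same wild-type pool. The deposited values, log ratios read as log2, were made by the authors. How they were scanned, corrected and normalized, on which log base and in which direction, is not given in the sources used here. Means of arrays lay within 0.0089 of 0, and the medians were 0.05, 0.04, -0.23, -0.13, 0.04 and -0.0049 on replicates 1 to 6. Intensities, slides and scan batches were not used here, so dim probes could not be told from bright ones; 6 arrays set the limit of precision. The targeted gene is not reported here.

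Of 6856 probes 6269 had 1 gene symbol in the platform annotation, 6 several and 581 none; all 32 member symbols matched the reference by gene identifier. The fit used lmFit and eBayes (limma 3.58.1, R 4.3.3) on probes holding 2 or more values per dye orientation, with dye orientation as a term and the intercept as mutant effect, and p-values were adjusted by Benjamini-Hochberg over all 4958 probes fitted, two-sided, threshold 0.05. The fit was tested on simulated data. The direction, the members and all lists were chosen with earlier results of these data known. By the rule for named genes, each member with a probe is named with its values on the arrays, and of each pathway list, up to 3 genes in each direction with the smallest p are. Where a gene of another list has several probes, the one with most values was used. Alternatives were replicates 1 to 3 turned, median centring alone and with scaling, a fit without dye, complete probes, array weights, robust moderation (statmod 1.5.0), averaging per gene, a threshold of 0.1, leaving out replicates 3 and 4 and leaving out each replicate.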

Additional observations from a re-analysis of the deposited data

Results flagged for a closer look

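Of 31 sets of values tested for an array far from the others, 2 were flagged (6.45%), where chance flags about 1 in 20 (5%). The count was thus near that of chance, and no share over all probes is given beside it. Per1 lay at -4.13 on replicate 5, with the nearest value at -0.54. Bdnf lay at -1.05 on replicate 1, with the nearest value at -0.15. In both cases a single array stood far below the others.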

How the results depend on the processing

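No immediate-early gene passed under any alternative run, 0 of 26 or fewer each time. Among all probes, 1 passed without replicates 3 and 4 and 2 with array weights, which were 0.10 and 0.31 on these arrays against 1.40 to 4.01 on the others; 0 passed under the other alternatives, 0 to 0 when each replicate was left out. The median estimate of -0.08 became 0.073 with replicates 1 to 3 turned, -0.017 with centring and scaling, -0.021 without replicates 3 and 4, and 0.036 with both the turn and those arrays left out, an alternative chosen after seeing the data; leaving out each replicate gave -0.079 to -0.0045. The 7 estimates above 0 became 21, 11, 12 and 17 under these settings and 11 with median centring, and 7 to 12 when each replicate was left out, with 12 without replicate 3 and 11 without replicate 4. The share of all probes above 0 moved as well. It was 43.3% in the main fit, 53.0%, 50.4%, 62.6% and 47.8% under these settings and 49.2% with median centring. When each replicate was left out it was 38.8% to 55.7%, with 55.7% without replicate 3 and 43.9% without replicate 4. The mean difference between factors and effectors, 0.05, was -0.04 with the turn alone, -0.17 with the turn and without replicates 3 and 4, and 0.0092 to 0.10 when each replicate was left out; the fit without dye, array weights and robust moderation do not enter it and were not run. Effectors with the higher mean in cy5 numbered 12 to 15 of 15 in settings that were also added after seeing the data, 12 of them without replicate 3 or 6. Over these settings 46.0% to 57.4% of all probes lay that way. The cause was not tested. No paired analysis was possible because the mutants form 1 group against 1 pool. Standard errors had a median of 0.16 over the 26 genes.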
